A study of Homo sapiens with 4 samples.

Results

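The transcripts described here are those of the endoplasmic reticulum (ER) chaperones and of the machinery that carries secretory proteins into the ER and removes the misfolded ones. The group was set by name as 38 genes, and a probe counted as a member when the array's annotation gave it one of these symbols. Of the 38 genes, 33 had a probe (35 probes), out of 16922 named genes on the array. P4HB, HERPUD1, SEC61G, ERN1 and EIF2AK3 had no probe annotated to them. A probe was considered expressed when its detection p-value, the chance of such a signal among the array's negative control beads, was under 0.01 on at least 1 array. By this limit 29 of the 33 genes were expressed (30 probes), and all 29 were detected on all 4 arrays. PDIA3, DNAJC3, SEL1L and SPCS2 were detected on none.

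The study asked what overexpression of the miR-146b microRNAs does to A549 cells, a human lung adenocarcinoma cell-line. A549/vec cells carry the empty pLemiR lentiviral vector. A549/146b cells carry the same vector with human pre-miR-146b inserted behind the coding sequence of the red fluorescent protein TurboRFP, whose gene is driven by the constitutive cytomegalovirus promoter. Both are puromycin-selected populations and not single clones, and both were kept in 2 µg/ml puromycin. As each vector is represented by 1 population, an effect of the insert and a difference between the populations cannot be told apart. The cell-lines were grown side by side on 2 occasions, giving 1 array for each cell-line on each occasion. The labels number the cultures 1 and 2 in both cell-lines, and this number was taken as that of the occasion. Deviations from the cell-line's mean had r = -0.05 between arrays of the same number, so that the data do not bear out this match. Every statement by occasion rests on it. No probe is annotated to the precursor itself, so that its level was not read on these arrays. The mature microRNAs that differ between the cell-lines by design are shown here with the seed (bases 2 to 8) in capitals, as given by RefSeq on GRCh38.p14, with the 5p form at chr10:102436520-102436542 and the 3p form at chr10:102436557-102436578, both on the plus strand.
hsa-miR-146b-5p: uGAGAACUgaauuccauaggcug
hsa-miR-146b-3p: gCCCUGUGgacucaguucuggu

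Proteins bound for secretion or for membranes enter the ER through the SEC61 channel, lose their signal peptide to signal peptidase, and fold with the help of chaperones and disulfide isomerases. Proteins that fail to fold are pulled back to the cytosol and destroyed, a route called ER-associated degradation. When unfolded proteins accumulate, 3 sensors in the ER membrane (IRE1, encoded by ERN1, PERK, encoded by EIF2AK3, and ATF6) start the unfolded protein response, in which spliced XBP1 and cleaved ATF6 switch on the genes of chaperones and of degradation together. A549 cells derive from the alveolar epithelium, whose type II cells secrete surfactant proteins through this machinery.

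The promoter element through which ATF6, with the factor NF-Y, acts on chaperone genes is the ER stress response element (ERSE), a CCAAT box, any 9 bases and a CCACG box. A shorter form, ERSE-II, is ATTGG, any base and CCACG, and the element UPRE, bound by XBP1 and ATF6, is TGACGTGG. The 3 motifs were searched on both strands in RefSeq promoter windows of 300 bases (250 before to 50 after the start of the gene, GRCh38.p14). Windows were at hand for 35 of the 38 genes, and not for DERL1, PDIA3 and SPCS1. ERSE was found in 7 of the 35 (20.0%), against 25 of all 27305 genes with a window (0.0916%), ERSE-II in 3 (8.57%), against 19 genes (0.0696%), and UPRE in 4 (11.4%), against 253 genes (0.927%). The members were chosen by name and include chaperone genes, on which ERSE is known to act, so that these shares are not an independent result. Only exact matches to the letters were counted. A match is a description of the letters and does not show that a factor binds there. The ERSE sites of the 7 members are printed because these genes share an element and can be followed together in the array values, with the CCAAT and CCACG boxes in capitals and 5 bases on each side.
HSPA5, chr9:125241386-125241414, minus strand: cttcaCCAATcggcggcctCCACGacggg
PDIA6, chr2:10812848-10812876, minus strand: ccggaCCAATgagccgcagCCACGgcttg
HSP90B1, chr12:103930211-103930239, plus strand: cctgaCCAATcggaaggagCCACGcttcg
HSP90B1, chr12:103930316-103930344, minus strand: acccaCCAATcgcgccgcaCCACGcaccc
CALR, chr19:12938379-12938407, minus strand: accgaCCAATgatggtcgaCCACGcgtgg
CANX, chr5:179698773-179698801, plus strand: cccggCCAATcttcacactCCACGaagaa
CRELD2, chr22:49918549-49918577, minus strand: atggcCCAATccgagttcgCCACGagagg
XBP1, chr22:28800598-28800626, minus strand: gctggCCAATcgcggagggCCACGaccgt

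ERSE-II was found in HYOU1 at 2 places, in SDF2L1 and in HERPUD1, which has no probe. The sites of the measured genes are printed with the fixed letters of the element in capitals. The UPRE of HYOU1 overlaps one of its ERSE-II sites on the other strand. UPRE was also found in DNAJC10, SSR3 and SSR4.
HYOU1, chr11:119057265-119057293, plus strand: cgcgtactcATTGGaCCACGtcccaggcc
HYOU1, chr11:119057371-119057399, plus strand: cggcctgggATTGGaCCACGtcacggggc
SDF2L1, chr22:21642105-21642133, minus strand: agggttttgATTGGtCCACGcttccgagg

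The values given are the authors' normalized signals, which are on a linear scale and can be compared between arrays for the same probe, but not between probes. Differences are those of log2 signals, A549/146b minus A549/vec, and the test was that of limma over all 10559 expressed probes, the occasion being a block. The standard error of a member's log2 difference was 0.14, and rests almost wholly on a spread that limma shares over all probes (1025 prior degrees of freedom, against 1 residual). With 2 arrays per cell-line, an exact permutation of the labels that ignores the occasions cannot give a two-sided p below 0.333. A permutation within the occasions allows fewer arrangements still. The number of arrays limits the precision of every value. The array of A549/vec replicate 1 stood apart, with Pearson's r of 0.985 to 0.991 with the other arrays across expressed probes, against 0.992 to 0.995 among those. Of 9 transcripts typical of A549 cells and simple epithelium 7 were expressed, as was 1 of 9 alveolar type II markers with a probe (ABCA3), and none of 6 plasma cell and leukocyte markers or of 9 fibroblast and endothelial markers with a probe. The RNA was that of whole cultures, in which fewer cells of a kind and less RNA per cell cannot be told apart.

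None of the 29 expressed ER genes passed the test between the cell-lines (limma, adjusted p under 0.05), which 0.928% of all tested probes did (0.436% higher and 0.492% lower). HSPA5, the major HSP70-type chaperone of the ER lumen, had the largest difference upwards, 27.0% higher in A549/146b, and PDIA6, a disulfide isomerase, the largest downwards, 20.8% lower. Both had an unadjusted p under 0.05, and they were 2 of 29 members (6.90%) to have one, against 12.2% of all tested probes (6.21% higher and 6.03% lower). The median log2 difference of the 29 genes was 0.01 (0.07 on occasion 1 and 0.03 on occasion 2), beside 0.01 over all 8290 tested genes, with 15 members above 0 and 14 below. On both occasions 9 members were higher (31.0%) and 6 lower (20.7%), against 31.2% and 27.4% of all tested genes (29.2% and 29.1% of all tested probes). The smallest difference called anywhere on the array was 0.50 on the log2 scale, and the largest of a member was 0.34. The lack of calls thus does not show that these genes were unchanged, and for HSPA5 the 95% interval ran from 0.06 to 0.63.

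**Figure D1:**
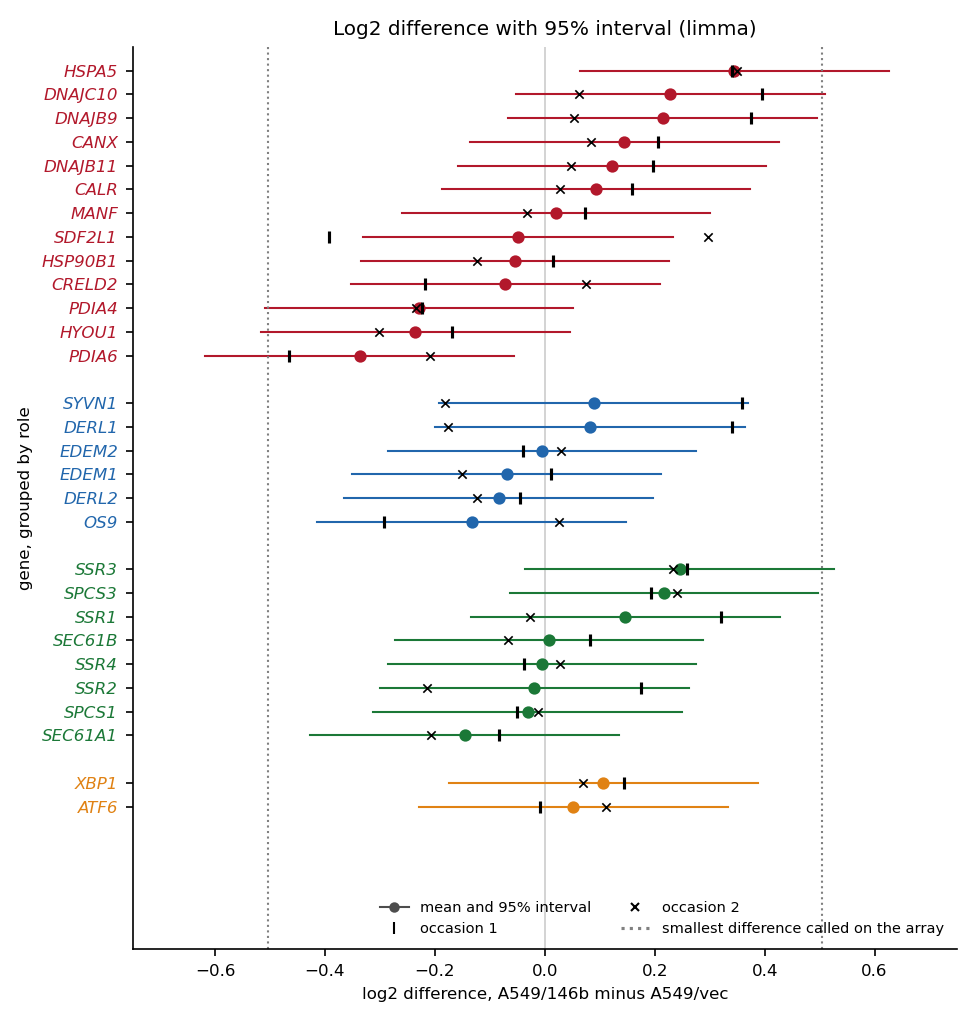
Log2 difference in normalized signal between A549/146b and A549/vec (x axis) for the 29 expressed members by role (y axis, red for chaperones and folding enzymes, blue for ER-associated degradation, green for translocon, TRAP and signal peptidase, orange for stress sensors and XBP1). Points are means over 2 occasions with the 95% interval from limma, ticks and crosses are occasions 1 and 2, and dotted lines mark 0.50 in size, the smallest difference called on the array, which no mean reaches.

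The arrays of the cell-lines did not overlap for 12 of the 29 genes (41.4%), against 44.0% of all tested probes. Both A549/146b arrays lay above both A549/vec arrays for HSPA5, CALR, CANX, DNAJC10, SSR3, SPCS3 and XBP1, and below both for PDIA4, PDIA6, HYOU1, DERL2 and SPCS1. These shares are close to those of the whole array, in which 22.0% of probes lay above and 22.0% below (23.7% and 20.7% of all tested genes). A549/vec replicate 1 was the lowest of the 4 arrays for 17 members (58.6%), against 37.4% of all tested genes and 35.0% of all tested probes. For 8 members (27.6%) the mean difference between the cell-lines was larger than that between either pair of duplicates, against 28.5% of all tested probes.

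**Figure D2:**
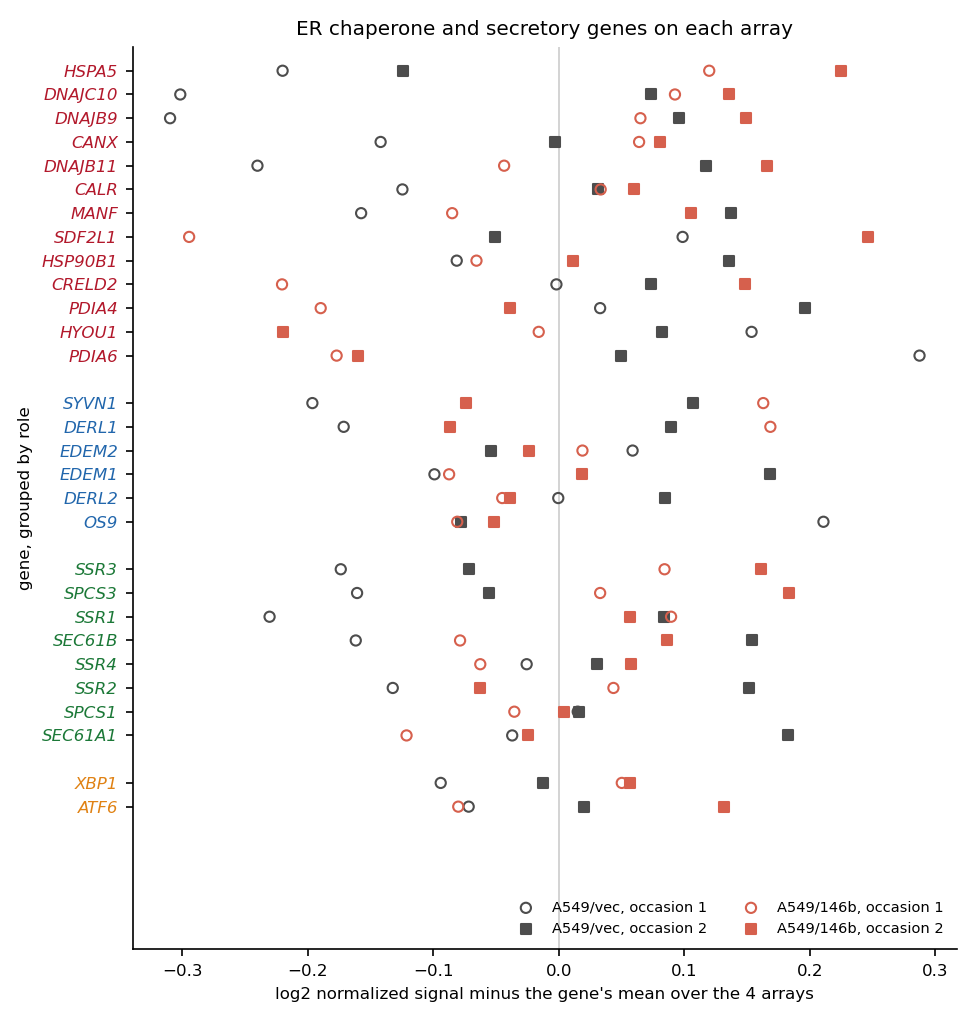
Log2 normalized signal of each of the 29 members on each of the 4 arrays, as the distance from the gene's mean over the arrays (x axis), by gene (y axis, coloured by role). Open circles are occasion 1, filled squares occasion 2, grey A549/vec and red A549/146b. The open grey circle, A549/vec on occasion 1, is the lowest of the 4 for 17 genes, and both red marks lie right of both grey ones for HSPA5.

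Among the lumenal chaperones, HSPA5 was higher in A549/146b and its partners varied in both directions. HSPA5, known as BiP, binds nascent chains and holds the stress sensors inactive. Given here and throughout in the order of replicates 1 and 2, its normalized signal was 489 and 523 in A549/vec and 619 and 666 in A549/146b, a mean of 506 ± 23.7 against 643 ± 33.0 (SD, n = 2). On the log2 scale occasion 1 gave 0.34 and occasion 2 gave 0.35, with a mean of 0.34 (standard error 0.14, adjusted p = 0.280 from limma). The cell-lines did not overlap, and the difference was over 3 times that between the duplicates of either cell-line (0.10 in each) without passing the test over all probes. HSP90B1, the ER form of HSP90, which finishes the folding of integrins and Toll-like receptors, had 6494 and 7547 in A549/vec and 6566 and 6926 in A549/146b. Both A549/146b values fell within the range of the A549/vec duplicates, and the log2 difference was -0.05 (95% interval -0.33 to 0.23). HYOU1, a large HSP70-like protein that exchanges the nucleotide of HSPA5, had 232 and 221 in A549/vec and 206 and 179 in A549/146b, a log2 difference of -0.24 (adjusted p = 0.519 from limma), and of -0.13 without A549/146b replicate 2. It was lower on both occasions (-0.17 and -0.30), on the other side of 0 from HSPA5.

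The J-domain proteins, which deliver substrates to HSPA5 and trigger its ATPase, and the lectin chaperones were higher in A549/146b on both occasions. DNAJC10, which also reduces disulfide bonds, had 380.5 and 493 in A549/vec and 500.1 and 515 in A549/146b, and its log2 difference of 0.23 was made up of 0.39 for occasion 1 and 0.06 for occasion 2. DNAJB9 had 275 and 364 in A549/vec and 357 and 378 in A549/146b, with 0.37 and 0.05. DNAJB11 had 0.20 and 0.05. In these 3 genes the difference came mostly from the low array of A549/vec replicate 1. The duplicates of A549/vec differed by 0.36 to 0.41 on the log2 scale, more than the cell-lines did. Calreticulin (CALR) and calnexin (CANX), which hold glycoproteins that carry a trimmed sugar tag until they are folded, had log2 differences of 0.09 and 0.14. CANX had 780.2 and 859 in A549/vec and 900.0 and 911 in A549/146b. None of these 5 passed the test (adjusted p = 0.539 to 0.856 from limma).

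PDIA6 and PDIA4 were lower in A549/146b, whereas DNAJC10, the other expressed member of the group from the protein disulfide isomerase family, was higher. PDIA6, which also tunes IRE1 activity, had 1544 and 1309 in A549/vec and 1119 and 1132 in A549/146b, a mean of 1427 ± 166 against 1126 ± 9.47 (SD, n = 2). Occasion 1 gave a log2 difference of -0.46 and occasion 2 one of -0.21, with a mean of -0.34 (standard error 0.14, adjusted p = 0.290 from limma). The A549/146b duplicates were nearly equal, and the spread lay in A549/vec. Left with 3 arrays, A549/vec replicate 2 being left out, and no block, PDIA6 had a log2 difference of -0.46 with an adjusted p of 0.0416 from limma, the one call of a member in any setting. In that setting 868 transcripts were called over the whole array. PDIA4 had 226 and 253 in A549/vec and 194 and 215 in A549/146b, and log2 differences of -0.22 and -0.24 on the occasions (adjusted p = 0.538 from limma). The probe of PDIA3, the isomerase that works with calnexin and calreticulin, was not detected on any array, with signals of 66.6 to 71.8, and gives no comparison. The probe of the co-chaperone DNAJC3 was likewise not detected on any array.

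Of the small lumenal proteins of the unfolded protein response, SDF2L1 and CRELD2 differed in direction between the occasions. SDF2L1, a cofactor of the J-domain proteins, had 3000.0 and 2705 in A549/vec and 2284 and 3323 in A549/146b, so that the lowest and the highest of its values were the A549/146b duplicates. Its log2 differences were -0.39 and 0.30 on the occasions. CRELD2, a disulfide isomerase-like protein, had 866 and 912 in A549/vec and 744 and 961 in A549/146b, with -0.22 and 0.08. In both genes A549/146b replicate 1 was the lowest array. MANF, a small protein that binds HSPA5 and is secreted under stress, had a log2 difference of 0.02, with 0.07 and -0.03 on the occasions.

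The 6 expressed genes of ER-associated degradation had a median log2 difference of -0.04, between -0.13 for OS9 and 0.09 for SYVN1, and 5 of the 6 moved in opposite directions on the occasions. Over all tested probes 58.4% moved the same way. SYVN1 (HRD1), the ubiquitin ligase at the centre of the route, had 422 and 521 in A549/vec and 541 and 459 in A549/146b, which gave 0.36 on occasion 1 but -0.18 on occasion 2 as log2 differences. DERL1, a channel protein that works with it, had 604 and 724 in A549/vec and 765 and 641 in A549/146b, with 0.34 and -0.18. In both genes the A549/vec array of occasion 1 was the lowest and the A549/146b array of occasion 1 the highest, and the cell-lines overlapped. DERL2, related to DERL1, was lower on both occasions, with 970.5 and 1029 in A549/vec and 941 and 945 in A549/146b and a log2 difference of -0.08. OS9, a lectin that brings glycoproteins to the ligase, had 172 and 141 in A549/vec and 141 and 143 in A549/146b. Only A549/vec replicate 1 stood above the other arrays for OS9. EDEM1 and EDEM2, which trim mannose from proteins to be destroyed, had -0.07 and -0.01. The smallest adjusted p of the 6 was 0.768 from limma, for OS9. The probe of SEL1L, the partner of SYVN1, was not detected on any array, and neither was a second probe of SYVN1.

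In the translocon group SSR3 and SPCS3 were higher in A549/146b on both occasions and the channel itself was not. SSR3, a subunit of the translocon-associated protein (TRAP) complex beside the channel, had 112 and 120.3 in A549/vec and 134 and 141 in A549/146b. These signals were near the detection floor, the lowest detected signal being 111 and 104 on the A549/vec arrays and 111 and 118 on those of A549/146b. The log2 differences of SSR3 were 0.26 and 0.23 on the occasions (mean 0.25, adjusted p = 0.495 from limma), with no overlap of the cell-lines. With neqc normalization the mean was 0.41 (adjusted p = 0.393 from limma). The other subunits of the same complex had 0.15 for SSR1, -0.02 for SSR2 and 0.00 for SSR4. SSR1 had 889 and 1106 in A549/vec and 1109.8 and 1085 in A549/146b, so that its mean rested on the low A549/vec replicate 1. SPCS3, a subunit of signal peptidase, had 216 and 232 in A549/vec and 247 and 274 in A549/146b, with 0.19 and 0.24 on the occasions (mean 0.22, adjusted p = 0.570 from limma). SPCS1, another subunit, differed by -0.03, and the probe of SPCS2 was not detected on any array. SEC61A1, the pore of the channel, had 3008 and 3504 in A549/vec and 2837 and 3034 in A549/146b, with -0.08 and -0.21 on the occasions (mean -0.15, 95% interval -0.43 to 0.13). Leaving out A549/vec replicate 1 gave a mean of -0.26, and leaving out the other culture of that cell-line one of -0.036. SEC61B, a small subunit of the channel, had 0.01. The estimates for subunits of 1 complex differed in sign and size, but their 95% intervals overlapped and no difference between subunits was tested. None of the 8 genes passed the test between the cell-lines.

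Of the sensors and their transcription factors, ATF6 and XBP1 could be measured. ATF6 had 789 and 841 in A549/vec and 784 and 908 in A549/146b, which held both the lowest and the highest value, and a log2 difference of 0.05 (95% interval -0.23 to 0.33). XBP1 was read by a pair of probes. Its main probe had 956 and 1011 in A549/vec and 1056 and 1061 in A549/146b, with a log2 difference of 0.11 and the A549/146b arrays above both others. The other probe had 653 and 824 in A549/vec and 788 and 795 in A549/146b, also with a mean of 0.11, but with 0.27 on occasion 1 and -0.05 on occasion 2. Neither probe passed the test (adjusted p = 0.830 and 0.823 from limma). Sensor activity lies in cleavage, phosphorylation and the splicing of XBP1, which these signals do not report.

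Set against the promoter elements printed above, the genes that share ERSE did not move in 1 direction between the cell-lines. Both ends of the whole group carried it, HSPA5 with 0.34 and PDIA6 with -0.34 on the log2 scale, each with 1 ERSE in its window. Of the 7 members with ERSE, 4 were above 0 (HSPA5, CANX, XBP1 and CALR) and 3 below (HSP90B1, CRELD2 and PDIA6), with a median of 0.09. Outside the group, 18 further genes had ERSE, of which 6 were expressed, with a median of 0.09 and 4 above 0. The expressed members with ERSE-II, HYOU1 and SDF2L1, had -0.24 and -0.05, and the 4 members with UPRE had a median of 0.11. The 18 expressed members whose window held neither ERSE nor ERSE-II had a median of 0.01, as had all tested genes.

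**Figure D3:**
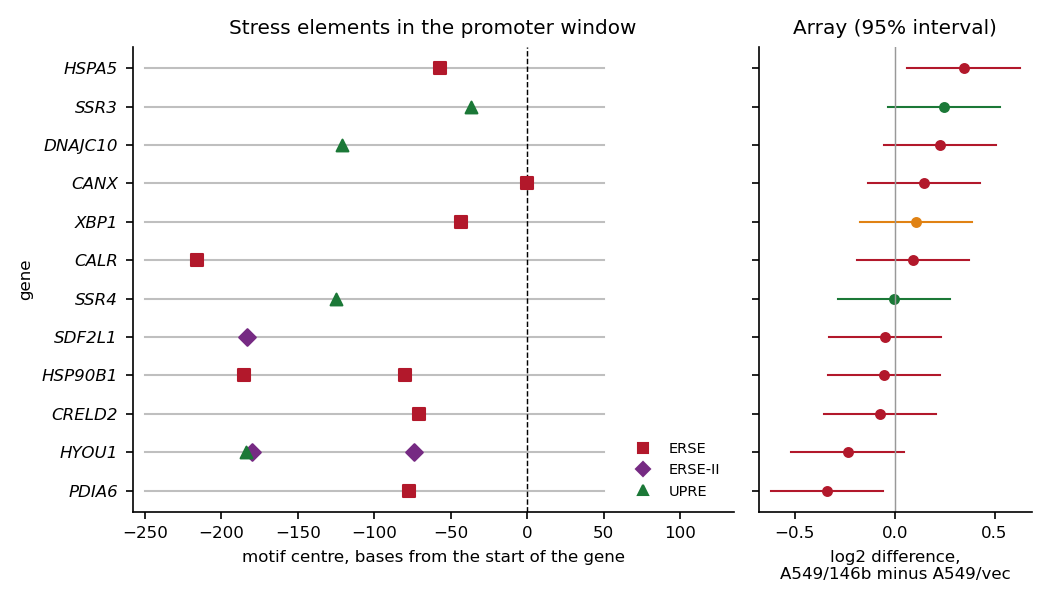
Left, positions of ERSE (squares), ERSE-II (diamonds) and UPRE (triangles) in the promoter window of the 12 expressed members that hold one, in bases from the start of the gene (x axis, dashed line at the start), ordered by log2 difference. Right, the log2 difference of each gene between A549/146b and A549/vec with its 95% interval from limma, which runs from -0.34 for PDIA6 to 0.34 for HSPA5.

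Compared by role, the medians of the classes lay close together and to that of all genes. The 13 chaperones and folding enzymes had a median of 0.02 on the log2 scale (0.07 on occasion 1, 0.05 on occasion 2). The 6 degradation genes had -0.04 (-0.01 and -0.14) and the 8 genes of the translocon group 0.00 (0.13 and -0.02). ATF6 and XBP1 had 0.08 (0.07 and 0.09). Over all tested genes it was 0.02 on occasion 1 and 0.00 on occasion 2. The classes differed more in how their members kept direction, with 9 of 13 chaperones (69.2%) moving the same way on both occasions, 4 of 8 in the translocon group and 1 of 6 degradation genes (16.7%), against 58.4% of all tested probes. These are counts over few genes, and no test of the difference between classes was made.

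**Figure D4:**
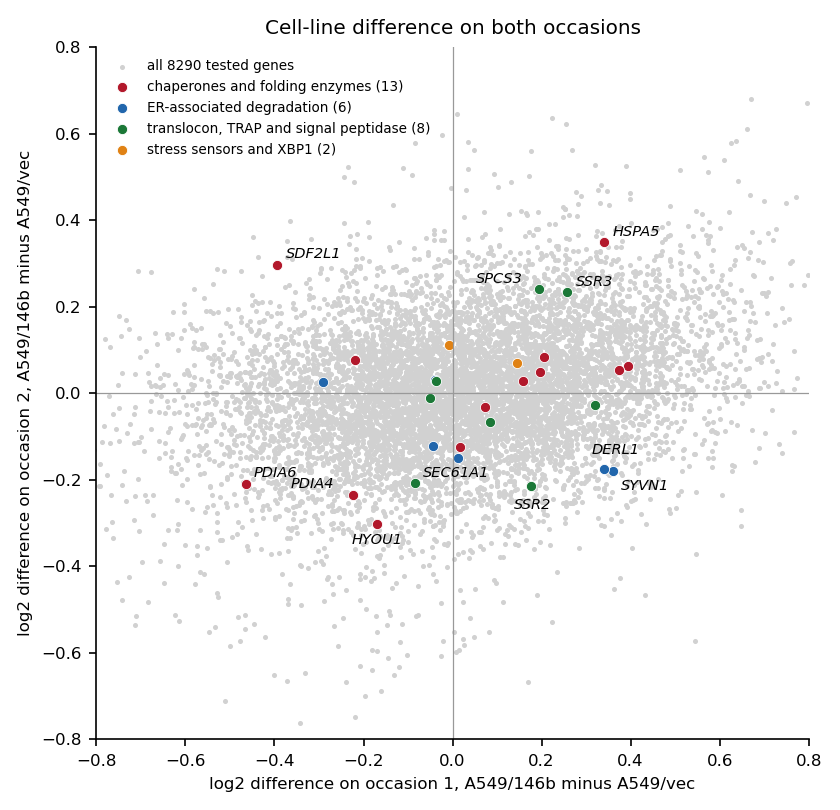
Log2 difference between A549/146b and A549/vec on occasion 1 (x axis) against that on occasion 2 (y axis), for all 8290 tested genes (grey, of which 48 lie outside the axes) and the 29 members by role. HSPA5 lies in the upper right at 0.34 and 0.35, PDIA6, PDIA4 and HYOU1 in the lower left, and SDF2L1, SYVN1 and DERL1 in the quadrants of opposite direction.

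The 29 members moved in 1 direction between the occasions more often than between the cell-lines, a pattern that the other genes of the secretory pathway did not share to the same extent. Within A549/vec, 24 of the 29 genes had a lower signal on occasion 1 than on occasion 2 (82.8%), against 54.0% of all tested genes and 51.8% of all tested probes. Within A549/146b, 23 of 29 did (79.3%), against 49.9% of all tested genes. Both cell-lines together were lower on occasion 1 for 20 of the 29 (69.0%), against 25.3% of all tested genes, and higher for 2 (6.90%), against 21.4%. The median log2 difference of the members, occasion 1 minus occasion 2, was -0.14 in A549/vec and -0.08 in A549/146b, beside -0.02 and 0.00 over all tested genes. By role, 10 of 13 chaperones, 6 of 8 genes of the translocon group, 2 of 6 degradation genes, and both ATF6 and XBP1 were lower on occasion 1 in both cell-lines. DNAJB11 had 1901 and 2437 in A549/vec and 2179 and 2519.7 in A549/146b, and MANF had 2164 and 2655 in A549/vec and 2276 and 2597 in A549/146b. Of the 143 other expressed genes of the secretory pathway, many of which also act in the ER, 45 were lower on occasion 1 in both cell-lines (31.5%) and 29 higher (20.3%). Of the cytosolic chaperones 7 of 26 were lower in both (26.9%). Both shares lay nearer to those of all tested genes than to those of the members. The lists differed, however. For the other folding enzymes and redox proteins the median, occasion 1 minus occasion 2, was -0.05 in A549/vec and -0.07 in A549/146b. For the other degradation genes it was -0.10 and -0.09. In A549/146b these medians were about that of the members, while those of the remaining secretory lists ran from -0.0003 to 0.05. The pattern was thus not particular to the members. With 1 array for each cell-line on each occasion, no test of this difference was made. Occasion cannot be told apart from whatever else differed between these arrays, and the match of arrays to occasions was taken from the culture numbers. The mean signal before normalization, which also differed between the arrays, was 394 and 480.1 on occasions 1 and 2 in A549/vec and 452 and 412 in A549/146b, and its part in the result was not tested. The pattern was seen in the data first. It held for 18 of 29 genes in the values renormalized with neqc and with quantile normalization. With median scaling 14 were lower in both cell-lines (48.3%), against 26.3% of all tested genes. In that setting 28 of 29 were lower on occasion 1 within A549/vec, but so were 82.6% of all tested genes. Within A549/146b 14 of 29 were (48.3%, against 33.3%), so that the members there were no longer mostly lower. The direction within A549/146b thus depended on the normalization. With median scaling the median of all tested genes itself differed between the occasions, by -0.20 in A549/vec and 0.07 in A549/146b, beside -0.35 and 0.00 for the members.

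**Figure D5:**
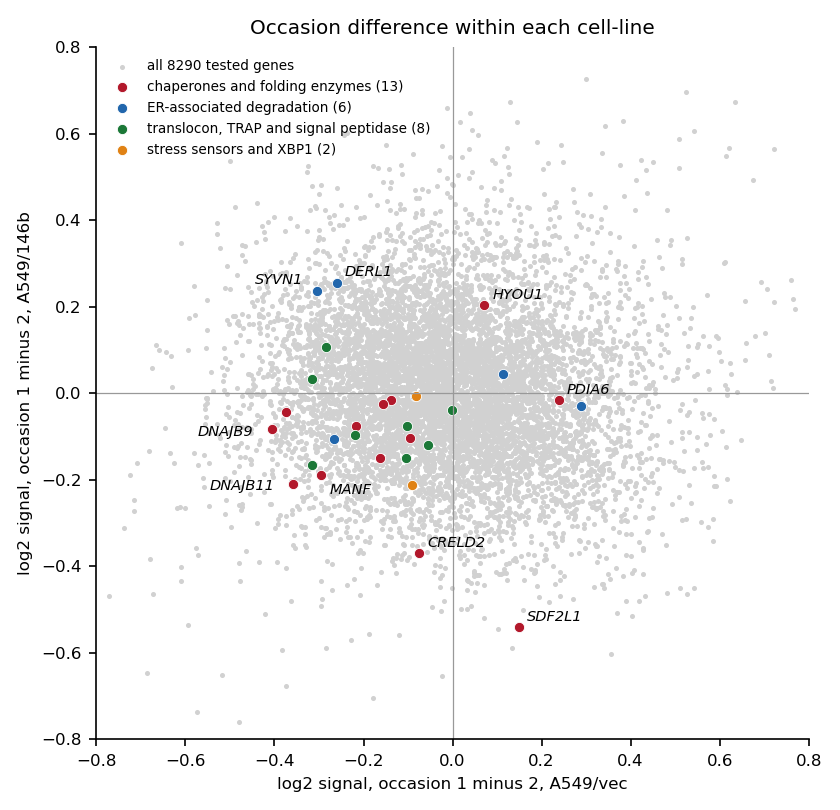
Log2 normalized signal on occasion 1 minus that on occasion 2 within A549/vec (x axis) and within A549/146b (y axis), for all 8290 tested genes (grey, of which 22 lie outside the axes) and the 29 members by role. The lower left quadrant, lower on occasion 1 in both cell-lines, holds 20 members, among them 10 of the 13 chaperones.

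The 184 other genes of the secretory pathway, listed by function, held no call either, in 143 expressed genes. Of these, 27 had an unadjusted p under 0.05 from limma (18.9%, against 12.2% of all tested probes), 19 of them higher and 8 lower, and their median log2 difference was 0.01. Among the folding enzymes and redox proteins (25 expressed), the isomerase PDIA5 had -0.33 and TMX3 had 0.32 (adjusted p = 0.296 and 0.319 from limma). PDIA5, like PDIA6 and PDIA4, was lower in A549/146b on each occasion (-0.45 and -0.22). In N-glycosylation (27 expressed), ALG5, which makes the glucose donor of the sugar tag, had 0.46 (adjusted p = 0.0877 from limma). OSTC, a subunit of the oligosaccharyltransferase, had 0.36 (adjusted p = 0.238 from limma). On occasions 1 and 2 ALG5 had 0.53 and 0.39, and OSTC 0.71 and 0.02. Of the other degradation genes (24 expressed), UBXN4 had 0.32 and NPLOC4, a cofactor of the extracting ATPase VCP, -0.32. UBXN4 had 0.38 and 0.26 on the occasions, whereas NPLOC4 had -0.68 and 0.05. In targeting and translocation (18 expressed), SEC62, a helper of the SEC61 channel, had 0.54 on occasion 1 and 0.36 on occasion 2 (mean 0.45, adjusted p = 0.0953 from limma), and GET4, which hands tail-anchored proteins to the ER, had -0.91 and 0.01. In COPII, COPI and retrieval (34 expressed), the cargo receptors TMED5 and TMED7 had 0.43 and 0.41 (adjusted p = 0.123 and 0.151 from limma).

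The genes of stress signalling beyond the sensors lay mostly below 0, with 11 of 15 expressed genes below and a median log2 difference of -0.08, and none called. A lower signal on each occasion was found for 8 of the 15 (53.3%), against 27.4% of all tested genes and 29.1% of all tested probes. The list was chosen with earlier results of these data known, so that this share is not an independent result, and it was not tested. PPP1R15A (GADD34), which reverses the translational block set by PERK, had 2001 and 2028 in A549/vec and 1528 and 1807 in A549/146b, a log2 difference of -0.28 (adjusted p = 0.414 from limma). ATF4, the transcription factor made under PERK, had 0.13 on occasion 1 and -0.20 on occasion 2. DDIT3 (CHOP), a target of ATF4, had -0.15 and -0.11. CREB3L2, a membrane-bound relative of ATF6, had the largest difference of the list, 0.36, higher on both occasions. The 26 expressed genes of cytosolic chaperones and their cofactors, which act outside the ER, had a median of -0.03 and no call. HSP90AB1 had -0.34 and PTGES3 0.30 (adjusted p = 0.280 and 0.359 from limma). On the occasions PTGES3 had 0.61 and -0.003.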

How the data were processed

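RNA of A549/vec and A549/146b cells (2 cultures each) was hybridized to Illumina HumanRef-8 arrays. The authors summarized beads in GenomeStudio and deposited signal intensities before normalization with detection p-values, and normalized intensities made in lumi 1.14 under R 2.11.1 (background correction, variance stabilization, robust spline normalization). The deposited normalized values proved to be linear, so that their log2 was computed here. All 4 arrays were used. The annotation gives 1 gene symbol for 21834 of 24526 probes and none for 2692. Symbols were updated through gene identifiers to RefSeq, which changed none of the members' names.

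The 10559 probes detected (p under 0.01) on any array were fitted with limma 3.58.1 in R 4.3.3, with the occasion as a block, and p-values were adjusted over all of them by the Benjamini-Hochberg method. The paper's methods state a paired comparison, and the labels number the cultures 1 and 2 in both cell-lines. Deviations from the cell-line's mean had r = -0.05 between arrays of the same number, which does not support the pairing from the data. The fit was first run on simulated data with independent noise of the same spread for all probes and no occasion effect. As the fit assumes such noise, this run says nothing of an array that stands apart. Of a gene with several expressed probes, that of the highest mean signal was used. The members and lists were chosen with earlier results of these data known. Values on every array are given for HSPA5, HSP90B1, XBP1 and ATF6, for the 4 members of each class with the largest difference, and, chosen after seeing the values, for DNAJB9, DNAJB11, DNAJC10, CANX, SDF2L1, CRELD2 and MANF. Of the other lists the genes of the smallest p are named, with ATF4 and DDIT3 chosen for their role. Alternatives were a fit without the block, neqc, quantile normalization, median scaling (16 added before log2), other detection filters, other probe choices and leaving out each array.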

Additional observations from a re-analysis of the deposited data

How the results depend on the processing

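Over the whole array 98 transcripts were called, 12 without the replicate block, 21 with neqc, 87 with quantile normalization, 6 with median scaling, 33 over probes detected on all 4 arrays and none over all probes (1984 with an unadjusted p under 0.05 from limma). Without 1 array, and without the block, 12 to 868 were called. No member was called in any setting that kept all arrays, and the block changed no member's call. Without 1 array 0 to 1 member was called, PDIA6 without A549/vec replicate 2. All 15 members named by rule kept their direction in the 90 values from settings that kept all arrays. Without 1 array the log2 difference crossed 0 for HSP90B1 (-0.16 to 0.054), ATF6 (-0.054 to 0.16), OS9 (-0.28 to 0.012), SYVN1 (-0.063 to 0.24), DERL1 (-0.048 to 0.21) and SSR1 (-0.011 to 0.30). It stayed on 1 side of 0 but moved for PDIA6 (to -0.22 without A549/vec replicate 1), PDIA4 (-0.15 without A549/vec replicate 2), HYOU1 (-0.13) and SPCS3 (0.14), both without A549/146b replicate 2, XBP1 (0.066 without A549/vec replicate 1), DERL2 (-0.13 to -0.042) and SEC61A1 (-0.26 to -0.036). With all arrays it also moved for SSR3 with neqc (0.41) and, with median scaling, for HSP90B1 (-0.0066), ATF6 (0.092), DERL2 (-0.039) and SEC61A1 (-0.090). With median scaling the median log2 difference was 0.063 for all members, 0.076 for the chaperones and 0.12 for ATF6 and XBP1, with 0.01 over all probes. Without 1 array it ran from -0.051 to 0.12 for all members, -0.075 to 0.17 for the chaperones, -0.06 to 0.01 for the degradation genes, -0.032 to 0.14 for the translocon group and 0.025 to 0.13 for ATF6 and XBP1. The causes were not tested. The probes of PDIA3, DNAJC3, SEL1L and SPCS2 did not pass the detection limit on any array.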

Other observations

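Chaperones and proteases of the mitochondrial matrix, which fold and clear proteins in another compartment, had 9 of 9 genes expressed and none called by limma, with a median log2 difference of 0.05. Of these 3 had an unadjusted p under 0.05 from limma (33.3%, against 12.2% of all tested probes), all of them with a lower mean in A549/146b. TRAP1, the mitochondrial HSP90, had -0.51 on occasion 1 and -0.14 on occasion 2, a mean of -0.33 (adjusted p = 0.311 from limma). The protease LONP1 had -0.56 and -0.02, with a mean of -0.29 (adjusted p = 0.388 from limma), so that its mean came almost wholly from occasion 1. CLPP had -0.58 and 0.01, with a mean of -0.29 (adjusted p = 0.393 from limma), and was lower on occasion 1 only. Of the other HSP90 proteins, the cytosolic HSP90AB1 had -0.40 and -0.29 and the cytosolic HSP90AA1 -0.12 and 0.055 on the occasions, and HSP90B1 of the ER 0.02 and -0.12.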
